A study of Mus musculus with 9 samples.

Results

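The 10 genes described here are immediate early genes of neuronal activity, Fos, Fosb, Junb, Egr1, Egr2, Arc, Nr4a1, Npas4, Ier2 and Dusp1. They were chosen by gene symbol from the 24532 genes listed for each mouse. All 10 were listed in every mouse, and all 10 were among the 14370 genes tested, those with a mean of 30 reads or more. RNA came from the medial prefrontal cortex of 9 mice, given as 11 weeks old and of strain C57BL/6 in the sample labels, with 3 mice and 3 libraries in each of 3 groups. CT mice were wild type and were not restrained. WT_ST mice were wild type and were restrained daily over several weeks. KO_ST mice were labelled Fkbp5-/- (a homozygous knockout) and received the same restraint. The study's methods give C57BL/6J, the strain to which the knockout line was backcrossed. No unstressed knockout mice were analysed here, so KO_ST against CT differs in both genotype and stress. The study's timeline puts sucrose preference tests after the restraint, and when the brains were taken relative to the last restraint or handling was not given in the sources used here.

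Immediate early genes are transcribed within minutes of a strong synaptic input, without the need for newly made protein. Calcium entry and the MAP kinase cascade activate factors that are already bound near these genes, among them CREB and serum response factor, and the transcripts decay again soon after the input ends. Fos, Fosb and Junb encode subunits of the AP-1 transcription factor. Egr1 and Egr2 encode zinc finger factors, Npas4 a bHLH-PAS factor that depends on calcium, Nr4a1 an orphan nuclear receptor and Ier2 a nuclear regulator of transcription. Arc encodes a synaptic protein that promotes the removal of AMPA receptors, and Dusp1 encodes a phosphatase that switches off MAP kinases. Dusp1 is also a target of the glucocorticoid receptor, whose sensitivity the FKBP5 protein lowers.

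Library depth, as reads counted on genes, ran from 43778471 to 61150128, with CT replicate 1 the deepest. The targeted gene Fkbp5 was at 7.61, 6.46 and 7.28 FPKM (fragments scaled to transcript length and to sequencing depth) in CT. It was at 9.83, 9.47 and 10.3 FPKM in WT_ST and at 3.59, 4.69 and 4.45 FPKM in KO_ST, so that all KO_ST mice lay below all others. Its transcript was not absent in KO_ST, with a mean of 59.7% of that in CT, and gene-level values cannot show which part of it was deleted. Markers of cortical excitatory neurons were high in all mice, with the glutamate transporter gene Slc17a7 between 581 and 677 FPKM. The 5 choroid plexus markers summed to at most 1.47 FPKM in any mouse. The 8 microglial markers summed to between 174 and 217 FPKM in CT, 138 to 158 in WT_ST and 76.0 to 170 in KO_ST. Of these 8, 7 were lower in WT_ST than in CT, 6 were lower in KO_ST than in CT and 1 was lower in KO_ST than in WT_ST at the rule used for the genes below, by which 2.47%, 3.56% and 2.0% of all tested genes were called in these comparisons. The 9 striatal neuron markers summed to between 82.2 and 106 FPKM in CT, 95.7 to 125 in WT_ST and 92.1 to 113 in KO_ST. Of these 9, 3 were higher in WT_ST than in CT, 2 were higher in KO_ST than in CT, and between KO_ST and WT_ST 1 was higher and 2 were lower in KO_ST. The 7 astrocyte markers summed to between 536 and 578 FPKM in CT, 485 to 506 in WT_ST and 477 to 572 in KO_ST, and 2 were called lower in WT_ST against CT. The 7 blood markers ranged from 97.6 to 954 FPKM within CT, 191 to 614 within WT_ST and 211 to 324 within KO_ST. The part of these cell types in the results below was not tested, and in tissue RNA a change in the number of cells cannot be told apart from a change in RNA per cell. Over all genes, 7 of the 9 mice stood over 4-fold apart from all others for 1 to 3 genes. CT replicate 3 and KO_ST replicate 2 each did for 3 genes, those of KO_ST replicate 2 including the AP-1 gene Jund, at 0.665 FPKM against 23.2 to 32.2 FPKM in the others. CT replicate 1 and KO_ST replicate 2 held most of the highest values of the 10 genes, and the calls, medians, spreads and correlations that rest on them are given below with and without them.

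The sequence before the transcription start is printed here for 5 of the genes because Dusp1, Nr4a1 and Junb correlated closely over the 9 mice, in part through 2 mice with high values, while Fosb did not correlate with them and Fos lay in between. Each stretch is the 250 bases before a start site of RefSeq on GRCm38.p6, written 5′ to 3′ on the strand of the gene, with the cyclic AMP response element (CRE) half-site TGACG, or CGTCA on the other strand, in capitals. The Dusp1 stretch lies at chr17:26508473-26508722 on the minus strand, that of Nr4a1 at chr15:101266596-101266845 on the plus strand and that of Junb at chr8:84978749-84978998 on the minus strand. The Fos stretch lies at chr12:85473640-85473889 on the plus strand and that of Fosb at chr7:19310046-19310295 on the minus strand.
Dusp1: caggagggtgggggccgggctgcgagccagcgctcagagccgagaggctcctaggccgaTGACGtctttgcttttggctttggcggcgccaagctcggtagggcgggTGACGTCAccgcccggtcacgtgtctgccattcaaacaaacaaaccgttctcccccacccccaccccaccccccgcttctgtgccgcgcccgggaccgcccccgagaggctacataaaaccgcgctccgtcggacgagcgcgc
Nr4a1: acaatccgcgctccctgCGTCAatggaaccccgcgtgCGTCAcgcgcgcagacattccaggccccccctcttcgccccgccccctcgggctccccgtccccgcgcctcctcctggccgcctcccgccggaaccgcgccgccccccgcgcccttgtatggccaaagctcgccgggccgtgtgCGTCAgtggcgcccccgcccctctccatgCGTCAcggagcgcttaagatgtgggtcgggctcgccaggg
Junb: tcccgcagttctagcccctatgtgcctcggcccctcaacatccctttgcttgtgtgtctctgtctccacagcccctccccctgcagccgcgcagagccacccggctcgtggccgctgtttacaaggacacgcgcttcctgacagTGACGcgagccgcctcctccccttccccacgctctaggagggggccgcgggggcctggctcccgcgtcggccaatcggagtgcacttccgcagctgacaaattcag
Fos: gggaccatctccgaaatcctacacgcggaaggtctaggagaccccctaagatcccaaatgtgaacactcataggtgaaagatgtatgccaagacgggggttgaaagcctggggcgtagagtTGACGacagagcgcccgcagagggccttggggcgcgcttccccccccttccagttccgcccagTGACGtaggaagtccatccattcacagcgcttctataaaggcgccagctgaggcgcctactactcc
Fosb: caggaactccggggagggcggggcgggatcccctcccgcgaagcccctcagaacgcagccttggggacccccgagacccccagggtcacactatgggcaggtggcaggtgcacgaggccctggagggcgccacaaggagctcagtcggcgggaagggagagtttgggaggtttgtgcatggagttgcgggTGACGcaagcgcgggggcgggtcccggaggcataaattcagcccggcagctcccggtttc
Start sites with a window were used for 7 of the 10 genes. Egr1 was left out before windows were counted, and Arc and Ier2 had no window. Among the 32851 windows of all genes, 17.8% held a CRE half-site on either strand and 3.90% held 2 or more. In the stretches above, the half-site was found 4 times in Nr4a1, 3 times in Dusp1, 2 times in Fos and 1 time each in Junb and Fosb. The 2 overlapping half-sites of Dusp1 form the full element TGACGTCA, which 1.55% of all windows held. The single window of Npas4 held 2 half-sites. Egr2 had 5 windows, and 3 of them, which overlap and share their matches, held the same 2 half-sites together with the same CArG box, the element bound by serum response factor, which 1.47% of all windows held. Another Egr2 window held a different CArG box without a half-site, and the last held neither. These are matches of letters, and no binding was measured here. The printed stretches were picked by the correlations in these data, and a link between half-sites and correlations was not tested.

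Across the 9 mice, the mean level ran from 66.1 FPKM for Egr1 to 1.08 FPKM for Egr2. Nr4a1 averaged 27.2 FPKM, Arc 24.1, Junb 13.7, Dusp1 10.04, Npas4 5.62, Fos 4.56, Ier2 3.19 and Fosb 2.72. Egr1, a factor with a high resting level in cortex, stood above 92.5% of the tested genes, and Egr2 above 13.6%. The reads behind a single value ran from 89 for Egr2 in KO_ST replicate 3 to 18043 for Egr1 in CT replicate 1.

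KO_ST mice had more Arc, Dusp1, Nr4a1 and Ier2 than WT_ST mice, by 2.05, 1.84, 1.33 and 1.45-fold in mean FPKM, and every KO_ST mouse lay above every WT_ST mouse for each of these 4 genes. The other 6 genes overlapped between the groups, with Fosb, Egr1 and Egr2 at lower means in KO_ST and Fos, Junb and Npas4 at higher means. The question here is how the Fkbp5 knockout genotype shifts expression among restrained mice. Differences were tested with limma on quantile-normalized log2(FPKM+1), and a gene was called at an unadjusted p under 0.05 with a fold change above 1.2. By this rule 4 of the 10 genes were called in KO_ST against WT_ST, all higher, where 2.0% of all 14370 tested genes were called. The groups did not overlap for the same 4 genes, against 11.0% of all tested genes. None of the 4 passed a Benjamini-Hochberg adjusted p of 0.05 in limma (smallest 0.642) or edgeR (smallest 0.602), whereas Dusp1 did in DESeq2 on the read counts (adjusted p = 0.00116, range over 17 alternatives 0.00116 to 0.997). DESeq2 gave 76 of all tested genes an adjusted p under 0.05 in this comparison, against 22 in limma and 23 in edgeR. In simulated counts with no gene changed, DESeq2 also gave some genes such an adjusted p, and limma and edgeR did not. By the call rule DESeq2 called 6 of the 10 genes, the same 4 higher and Egr2 and Fosb lower, with 410 of all tested genes called. Without the call on size, 4 of the 10 had an unadjusted p under 0.05 in limma, 4 in edgeR and 6 in DESeq2. Of all 14370 tested genes, 837, 802 and 713 did. The median log2 fold change was 0.22 over the 10 genes and -0.001 over all tested genes, and the median of the 10 was 0.10 without KO_ST replicate 2. Without that mouse, limma called 3 of the 10 genes, Arc and Dusp1 higher and Egr2 lower, with 1.98% of all tested genes called.

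**Figure D1:**
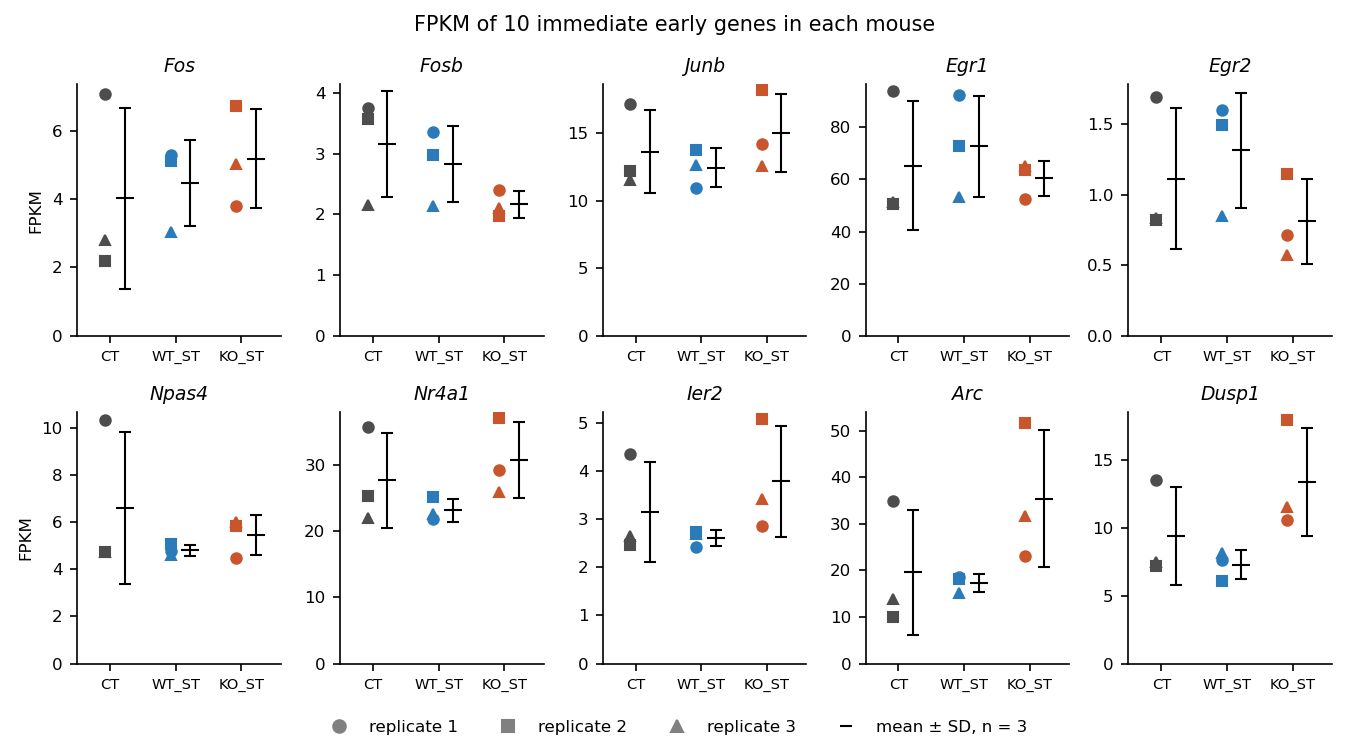
FPKM of each of the 10 genes (vertical axes, from 0) in each mouse of CT, WT_ST and KO_ST, with marker shapes for replicates 1 to 3 and black bars for the mean ± SD (n = 3). For Arc the KO_ST mice sit at 23.0, 51.7 and 31.6 FPKM, above all WT_ST mice, while CT replicate 1 stands apart from the other CT mice at 34.9 FPKM.

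None of the 10 genes was called in WT_ST against CT, where 2.47% of all tested genes were called. This comparison asks what restraint did in wild-type mice. Without the call on size, 0 of the 10 had an unadjusted p under 0.05 in limma, edgeR or DESeq2, where 7.86%, 7.47% and 7.16% of all tested genes did. The log2 fold changes ran from -0.28 for Npas4 to 0.25 for Fos. The groups overlapped for all 10 genes, where 14.0% of all tested genes did not overlap. The median log2 fold change was -0.09 in limma, against 0.003 over all tested genes, and -0.17 in edgeR and in DESeq2. Single mice moved the limma median. It was 0.06 without CT replicate 1, -0.21 and -0.22 without CT replicates 2 and 3, and -0.02 without WT_ST replicate 3. The 95% interval for Arc ran from -0.91 to 0.96. Without CT replicate 1, Arc (0.53) and Fos (0.66) were called higher in WT_ST, with 3.69% of all tested genes called. Without CT replicate 3, Nr4a1 was called lower, with 3.79% of all tested genes called.

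None of the 10 genes was called in KO_ST against CT either, where 3.56% of all tested genes were called, although the mean of Arc was 1.81-fold higher in KO_ST. Without the call on size, 0 had an unadjusted p under 0.05 in limma, where 9.46% of all tested genes did. edgeR and DESeq2 each gave 1, Fosb, lower in KO_ST, which is near the share over all tested genes of 9.34% and 9.39%. The groups overlapped for all 10, where 15.8% of all tested genes did not. The median log2 fold change was 0.16, against 0.002 over all tested genes. It was 0.35, 0.11 and 0.04 without CT replicates 1 to 3, 0.02 without KO_ST replicate 2, 0.27 without KO_ST replicate 3 and 0.21 without both CT replicate 1 and KO_ST replicate 2. Without CT replicate 1, 3 genes were called, all higher in KO_ST, with log2 fold changes of 1.46 for Arc, 0.84 for Fos and 0.78 for Dusp1, and 5.14% of all tested genes were called. Without both CT replicate 1 and KO_ST replicate 2, the same 3 were called at 1.15, 0.66 and 0.56, with 4.77% of all tested genes called. Without CT replicate 3, Fosb was called lower, with 4.44% of all tested genes called. CT is shared with the comparison above, and WT_ST and KO_ST each enter 2 comparisons, so their values are not independent of each other.

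**Figure D2:**
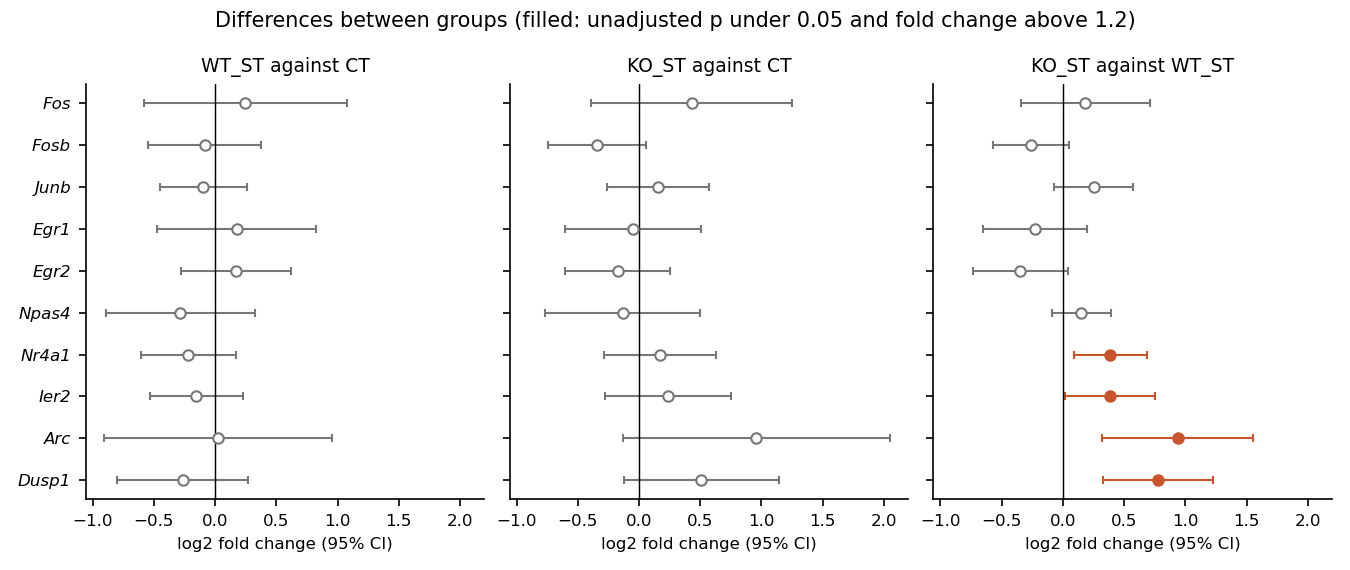
Log2 fold change of each gene with its 95% confidence interval (horizontal axes) in the 3 comparisons, from limma on 3 mice per group, with filled points for called genes. Filled points appear in KO_ST against WT_ST alone, at 0.94 for Arc, 0.78 for Dusp1 and 0.39 each for Nr4a1 and Ier2.

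Fos, the AP-1 subunit most used as a marker of active neurons (chr12:85473890-85477274, plus strand, GRCm38), was measured at 7.07, 2.18 and 2.80 FPKM in CT replicates 1 to 3. It was at 5.29, 5.10 and 3.04 FPKM in WT_ST and 3.81, 6.71 and 5.03 FPKM in KO_ST. The highest and the lowest of the 9 mice were both CT mice, and the groups overlapped throughout. KO_ST differed from WT_ST by a log2 fold change of 0.18, with a 95% interval from -0.34 to 0.71.

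Fosb (chr7:19302696-19310118, minus strand), a subunit whose stable splice form builds up with repeated stimulation, was measured at 3.75, 3.57 and 2.15 FPKM in CT. It was at 3.37, 2.99 and 2.14 FPKM in WT_ST and 2.41, 1.98 and 2.11 FPKM in KO_ST. CT and WT_ST each held a pair of mice near or above 3 and another mouse near the KO_ST values, which were close together. Against CT, KO_ST stood at a log2 fold change of -0.34 (95% interval -0.74 to 0.05, adjusted p = 0.561 from limma) and against WT_ST at -0.26 (-0.57 to 0.05, adjusted p = 0.892). DESeq2 called it lower against WT_ST (log2 fold change -0.36, unadjusted p = 0.0455), and so did limma without WT_ST replicate 3 (-0.40). Splice forms were not separated in these gene-level values.

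Junb (chr8:84976909-84978748, minus strand), the AP-1 partner that restrains Jun, was measured at 17.2, 12.2 and 11.6 FPKM in CT. It was at 11.0, 13.8 and 12.7 FPKM in WT_ST and 14.2, 18.2 and 12.6 FPKM in KO_ST. CT replicates 2 and 3, all WT_ST mice and KO_ST replicate 3 lay below 14 FPKM. KO_ST stood against WT_ST at a log2 fold change of 0.25 (95% interval -0.07 to 0.58, adjusted p = 0.899 from limma). Without KO_ST replicate 3 it was 0.36 and called higher, and without KO_ST replicate 2 it was 0.105. Junb overlaps Prdx2 on the other strand in GENCODE M21, and the sources used here do not say whether strand was used in counting.

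Egr1, widely used as a marker of synaptic plasticity, was measured at 93.8, 50.6 and 51.4 FPKM in CT, 92.2, 72.7 and 53.2 FPKM in WT_ST and 52.7, 63.6 and 65.1 FPKM in KO_ST. One CT mouse and one WT_ST mouse stood above 90 FPKM, and no KO_ST mouse did. In KO_ST the log2 fold change from WT_ST was -0.23 (95% interval -0.65 to 0.20, adjusted p = 0.940 from limma). Without WT_ST replicate 3 it was -0.42 and called lower, and without WT_ST replicate 1 it was -0.048.

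Egr2 (chr10:67534469-67542188, plus strand), a zinc finger factor related to Egr1, was measured at 1.69, 0.82 and 0.84 FPKM in CT. It was at 1.60, 1.496 and 0.85 FPKM in WT_ST and 0.72, 1.15 and 0.57 FPKM in KO_ST. The pattern over CT and WT_ST mice was that of Egr1, and the lowest 2 values were KO_ST mice. Egr2 in KO_ST differed from WT_ST by -0.35 on the log2 scale (95% interval -0.74 to 0.04, adjusted p = 0.869 from limma). DESeq2 called it at an unadjusted p of 0.0342, and so did limma without KO_ST replicate 2 (log2 fold change -0.47) and without WT_ST replicate 3.

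Npas4 (chr19:4984353-5003439, minus strand), which in neurons responds to calcium and little else, was measured at 10.3, 4.75 and 4.73 FPKM in CT. It was at 4.77, 5.06 and 4.59 FPKM in WT_ST and 4.48, 5.84 and 6.02 FPKM in KO_ST. Apart from CT replicate 1, all mice lay between 4.48 and 6.02 FPKM. Npas4 in KO_ST differed from WT_ST by 0.15 on the log2 scale (95% interval -0.09 to 0.39, adjusted p = 0.933 from limma), the narrowest interval of the 10 genes in this comparison. Without KO_ST replicate 1 the difference was 0.26 (unadjusted p = 0.0103 from limma), under the fold threshold, and without KO_ST replicate 3 it was 0.092.

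Nr4a1 (chr15:101253902-101274795, plus strand) was measured at 35.7, 25.2 and 22.02 FPKM in CT, 21.8, 25.1 and 22.5 FPKM in WT_ST and 29.2, 37.1 and 25.9 FPKM in KO_ST. The means were 27.7 ± 7.17, 23.1 ± 1.74 and 30.7 ± 5.75 FPKM (SD, n = 3), and the lowest KO_ST mouse lay just above the highest WT_ST mouse. Nr4a1 in KO_ST exceeded WT_ST by a log2 fold change of 0.39 (standard error 0.126, 95% interval 0.09 to 0.68, unadjusted p = 0.0177, adjusted p = 0.801 from limma). It was called in 14 of 17 alternatives. Without KO_ST replicate 2 it was 0.24 and under the fold threshold, and it was not called without WT_ST replicate 1 or with all 3 groups in one fit.

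Ier2 (chr8:84661331-84662852, minus strand) was measured at 4.35, 2.47 and 2.65 FPKM in CT, 2.43, 2.74 and 2.69 FPKM in WT_ST and 2.86, 5.08 and 3.43 FPKM in KO_ST. The means were 3.16 ± 1.04, 2.62 ± 0.163 and 3.79 ± 1.15 FPKM (SD, n = 3). The WT_ST mice lay within a narrow range just below the lowest KO_ST mouse. Ier2 in KO_ST exceeded WT_ST by a log2 fold change of 0.39 (standard error 0.157, 95% interval 0.02 to 0.76, unadjusted p = 0.0427, adjusted p = 0.847 from limma). It rested on 186 to 363 reads per mouse in these groups and was called in 10 of 17 alternatives. The call was lost when any of the 3 WT_ST mice, KO_ST replicate 2 or KO_ST replicate 3 was left out. The log2 fold change was then 0.36, 0.40 and 0.39 without WT_ST replicates 1 to 3, 0.44 without KO_ST replicate 3 and 0.20 without KO_ST replicate 2.

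Arc (chr15:74669081-74672570, minus strand) varied most of the 10 genes, from 10.02 to 51.7 FPKM. It was measured at 34.9, 10.02 and 13.8 FPKM in CT, 18.7, 18.1 and 15.1 FPKM in WT_ST and 23.0, 51.7 and 31.6 FPKM in KO_ST. The group means were 19.6 ± 13.4, 17.3 ± 1.93 and 35.4 ± 14.7 FPKM (SD, n = 3). All KO_ST mice lay above all WT_ST mice and above CT replicates 2 and 3, and CT replicate 1 lay between them. Arc in KO_ST exceeded WT_ST by a log2 fold change of 0.94 (standard error 0.263, 95% interval 0.32 to 1.56, unadjusted p = 0.00889, adjusted p = 0.701 from limma). It was called in all 17 alternatives, between 0.62 without KO_ST replicate 2 and 1.203 without KO_ST replicate 1. Against CT the log2 fold change was 0.96 (95% interval -0.13 to 2.05, adjusted p = 0.560 from limma).

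Dusp1 (chr17:26505591-26508472, minus strand) was measured at 13.6, 7.19 and 7.52 FPKM in CT, 7.62, 6.10 and 8.17 FPKM in WT_ST and 10.6, 18.0 and 11.6 FPKM in KO_ST. The group means were 9.42 ± 3.59, 7.30 ± 1.07 and 13.4 ± 3.98 FPKM (SD, n = 3). All KO_ST mice lay above all WT_ST mice and above CT replicates 2 and 3. Dusp1 in KO_ST exceeded WT_ST by a log2 fold change of 0.78 (standard error 0.190, 95% interval 0.33 to 1.22, unadjusted p = 0.00447, adjusted p = 0.642 from limma). It was called in all 17 alternatives, between 0.56 without KO_ST replicate 2 and 0.91. Dusp1 lies on the chromosome of the knocked-out gene, 1.89 Mb from the nearer end of Fkbp5. It also overlaps Ergic1 and a pseudogene on the other strand in GENCODE M21. The part of its position and of these overlaps in the Dusp1 values was not tested.

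Over all 9 mice, these genes varied more within groups than most genes did, in part through 2 mice. The standard deviation within groups on the log2 scale was between 0.245 for Junb and 0.623 for Arc, against a median of 0.0911 over all tested genes. All 10 lay above the 90th percentile of the tested genes and 7 above the 95th. Without CT replicate 1 and KO_ST replicate 2, 4 lay above the 90th and 3 above the 95th, with standard deviations between 0.0679 for Ier2 and 0.291 for Fos against a median of 0.0872. The ratio of the highest to the lowest mouse was 5.15 for Arc, 3.24 for Fos, 2.96 for Egr2, 2.94 for Dusp1 and 1.66 for Junb. CT had the largest standard deviation of FPKM among the 3 groups for 7 of the genes, Fos, Fosb, Junb, Egr1, Egr2, Nr4a1 and Npas4, and KO_ST for the other 3. Without CT replicate 1, CT had the largest for Fosb alone, WT_ST for 2 genes and KO_ST for 7. Without KO_ST replicate 2, CT had the largest for all 10.

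In the mice with the highest values, several of the genes were high together. On the normalized scale, CT replicate 1 was the highest of the 9 mice for 4 genes, Fos, Fosb, Egr1 and Npas4, and it was the highest mouse for 6.36% of all tested genes. KO_ST replicate 2 was the highest for 5 genes, Junb, Arc, Nr4a1, Ier2 and Dusp1, against 12.6% of all tested genes. WT_ST replicate 1 was the highest for Egr2. The unrestrained mouse CT replicate 1 was above the mean of the 9 mice for all 10 genes. KO_ST replicate 2 differed from it in Fosb, where it was the lowest mouse of all, and in Egr1, where it was at the mean. CT replicate 2 was the lowest mouse for 4 genes, Fos, Egr1, Arc and Ier2, and for 17.1% of all tested genes, the largest such share of the 9 mice.

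**Figure D3:**
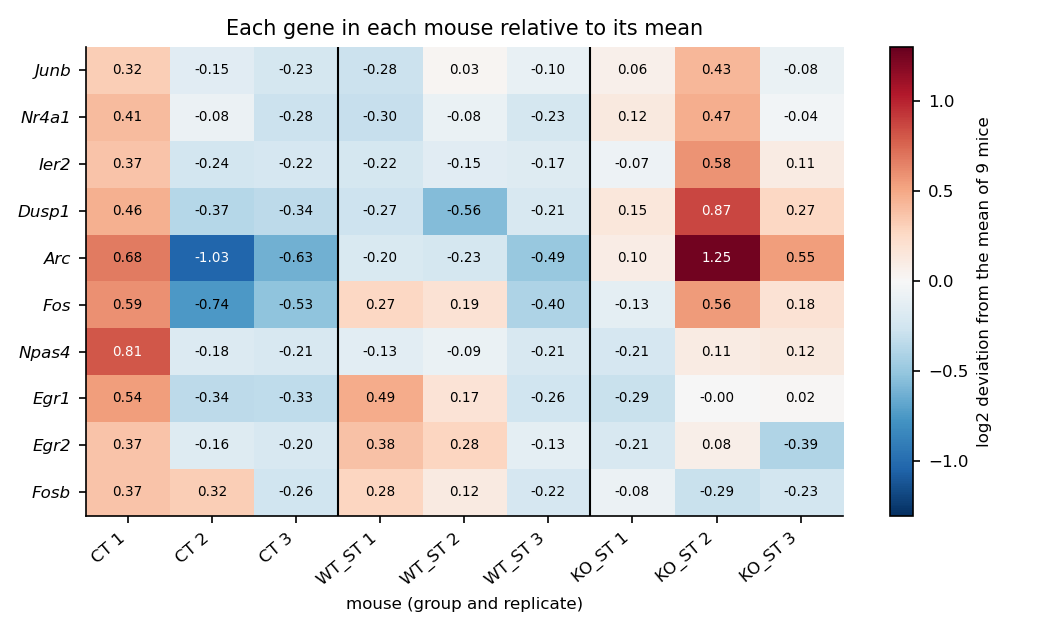
Log2 deviation of each gene (rows) in each mouse (columns, by group and replicate) from its mean over the 9 mice, in color and number, on the quantile-normalized log2(FPKM+1) scale. CT replicate 1 is above the mean in every row, and KO_ST replicate 2 ranges from 1.25 for Arc to -0.29 for Fosb.

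Pairs of these genes correlated across the 9 mice with a median Pearson r of 0.634 over 45 pairs, in a range from -0.274 to 0.966. Of the 45 pairs, 15 (33.3%) exceeded 0.7, against 2.64% of all pairs of tested genes, whose median was 0. After the group means were subtracted, so that only differences between mice of one group remained, the median was 0.772, no pair was negative and 29 pairs (64.4%) exceeded 0.7, against 4.66% of all pairs. Without CT replicate 1 and KO_ST replicate 2 this did not hold, with a median within groups of -0.002, 23 negative pairs and 7 pairs (15.6%) above 0.7, against 10.4% of all pairs. The high median within groups therefore rests on these 2 mice. All pairs rest on the same 9 libraries and share their depth. By exact permutation of the 9 mice (two-sided), 13 pairs had a Benjamini-Hochberg adjusted p under 0.05 over the 45 pairs for Pearson's r and 6 for Spearman's rho, and the 6 were among the 13. Permuted within groups, where the smallest possible p is 0.00463, 11 pairs had an unadjusted p under 0.05 and 0 an adjusted one.

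The closest pair was Junb and Nr4a1, with r = 0.966 (exact permutation p = 0.000163, adjusted 0.00366) and rho = 0.917 (exact permutation p = 0.00131, adjusted 0.0304). Without the 2 mice farthest from the median of Junb, CT replicate 1 and KO_ST replicate 2, r was 0.845, and r was 0.978 for deviations from the group means. Ier2 and Dusp1 followed with r = 0.938 (exact permutation p = 0.000276, adjusted 0.00413), which was 0.815 without the same 2 mice, and rho = 0.817 (exact permutation p = 0.0108, adjusted 0.0606). Arc and Ier2 reached r = 0.928 (exact permutation p = 4.68e-05, adjusted 0.00211), which was 0.882 without them, and rho = 0.900 (exact permutation p = 0.00203, adjusted 0.0304).

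The lowest correlations were those of Fosb with Dusp1, Arc and Ier2. Its r was -0.274 with Dusp1 (exact permutation p = 0.474, adjusted 0.631; rho -0.283, p = 0.463, adjusted 0.631). It was -0.245 with Arc (exact permutation p = 0.520, adjusted 0.650; rho -0.167, p = 0.678, adjusted 0.824) and -0.173 with Ier2 (exact permutation p = 0.641, adjusted 0.703; rho -0.317, p = 0.410, adjusted 0.577). None of the 3 differed from 0 beyond the permutations. With all 9 mice, within groups, the same pairs were at 0.135, 0.201 and 0.131.

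Seen after the fact, the genes fell into a set of Junb, Nr4a1, Ier2, Dusp1 and Arc, whose 10 pairs had a median r of 0.910, and a set of Egr1, Egr2 and Fosb, whose 3 pairs had a median of 0.634. The 15 pairs between the sets had a median of 0.210, and of 0.625 for deviations from the group means. The sets were chosen from these values and were not tested. Without CT replicate 1 and KO_ST replicate 2, the medians were 0.545 within the first set, 0.650 within the second and -0.236 between them, and the median over all 45 pairs was 0.260. The high correlations in the first set therefore rest in part on these 2 mice. Fos stood between the sets, with r = 0.872 to Arc and 0.810 to Egr1.

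**Figure D4:**
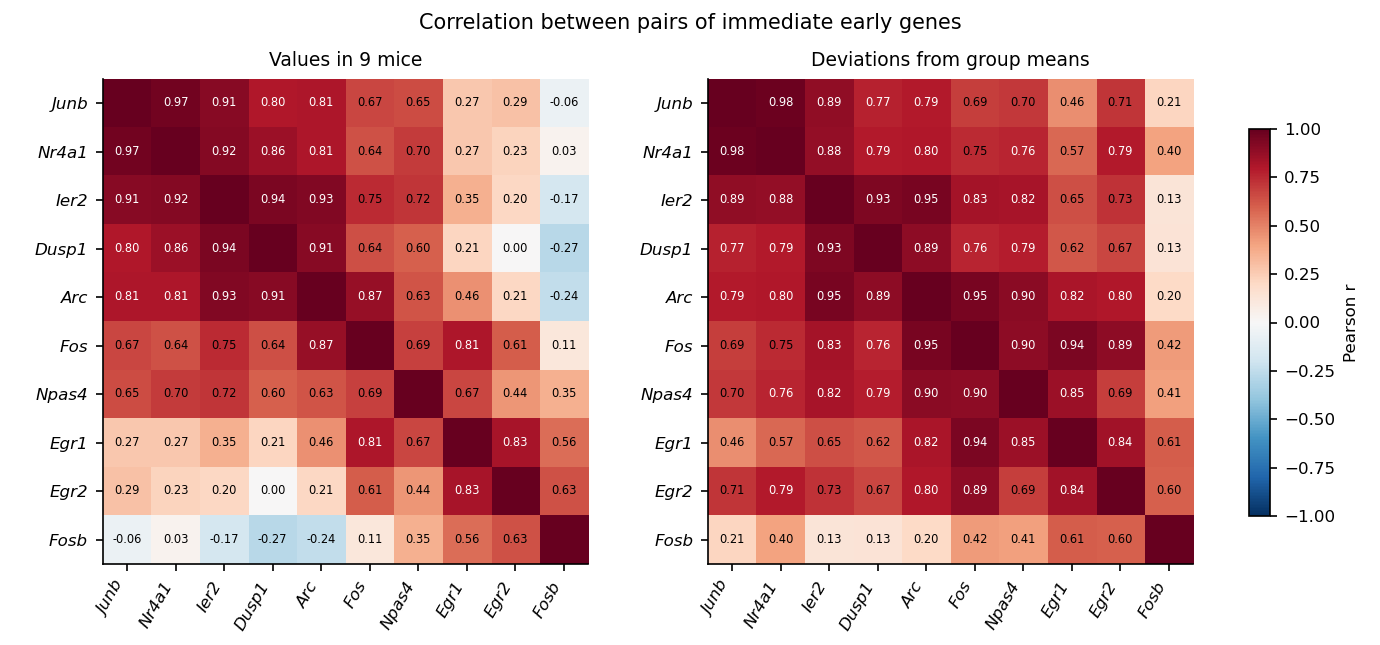
Pearson r between each pair of the 10 genes over 9 mice, on the left from the normalized values and on the right from deviations from the group means, with the color scale from -1 to 1. Junb, Nr4a1, Ier2, Dusp1 and Arc form a block of pairs with r from 0.804 to 0.966, and Fosb is the one gene with negative pairs.

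Among the tested genes most like the 10 over the 9 mice, by mean Pearson r with them, were Gadd45b (0.724), Ncbp1 (0.716), Cdc34 (0.670), Sowahb (0.668), Irs1 (0.658), Zfp85os (0.657), Fgfr1op (0.654), Gadd45g (0.648) and C2 (0.637). Gadd45b and Gadd45g, which encode stress-responsive regulators of DNA demethylation and of p38 signaling, belong to the list of other rapid response genes. They ranked 1 and 8 of 14360 genes. The 31 tested genes of that list ranked as low as 13358, for Jund (mean r -0.37), and 8 of them had a negative mean r. Gadd45b was at 6.45, 4.62 and 4.80 FPKM in CT, 5.04, 5.10 and 4.41 FPKM in WT_ST and 5.01, 6.28 and 4.88 FPKM in KO_ST. Its 2 highest mice were CT replicate 1 and KO_ST replicate 2.

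Some other genes of the rapid response were called in each comparison, not always the same ones. Of 34 listed, 31 were tested. In KO_ST against WT_ST, 6 were called higher, where 0.946% of all tested genes were called higher, and 1 was called lower, with a median log2 fold change of 0.06 over the 31. Those higher were Csrnp1 (0.41), Sik1 (0.38), Cyr61 (0.38), Btg2 (0.37), Klf10 (0.36) and Dusp6 (0.27). Dusp6, like Dusp1, encodes a phosphatase of MAP kinases, and Sik1 a kinase induced by cyclic AMP. Egr3, a relative of Egr1 and Egr2, was called lower (-0.31), with 41.5, 37.8 and 33.2 FPKM in WT_ST and 28.5, 28.0 and 32.6 FPKM in KO_ST. Every WT_ST mouse was above every KO_ST mouse for Egr3, and its mean difference had the sign of those of Egr1 and Egr2. Jund had the largest fitted value (-1.38), from KO_ST replicate 2 alone, and was not called.

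Against CT, 6 of the 31 were called higher in KO_ST, where 1.54% of all tested genes were called higher, and 0 lower. The log2 fold changes were 0.49 for Sik1 and Arl4d, 0.41 for Dusp5, 0.38 for Csrnp1 and 0.33 for Cyr61 and Per1, with a median of -0.01. Jund had the largest fitted value there (-1.62), again with KO_ST replicate 2 far below all others, and was not called. In WT_ST against CT, 0 of the 31 were called higher and 1 lower, Btg2 (-0.54), an inhibitor of cell division, with a median of -0.02. This count is near the 2.47% of all tested genes called there. Btg2 was at 5.83, 4.08 and 3.51 FPKM in CT, 2.66, 2.63 and 2.596 FPKM in WT_ST and 3.08, 4.24 and 3.83 FPKM in KO_ST. The WT_ST mice were thus the lowest 3 of the 9. In the same comparison Arl4d was at 0.29 and Jund at -0.24 (unadjusted p = 0.0844 and 0.00229 from limma), and neither was called. Jund stayed under the fold threshold, with every WT_ST mouse below every CT mouse. Of the 31, 3 were lower and 1 higher in all WT_ST mice than in all CT mice, where 14.0% of all tested genes did not overlap. None of these genes passed an adjusted p of 0.05 in limma.

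The later effectors of activity include Bdnf and the synaptic scaffold gene Homer1. Of 15 listed and tested, at most 1 was called in a comparison, where 2.0% to 3.56% of all tested genes were called. In WT_ST against CT this was Ptgs2 (0.28), the inducible cyclooxygenase, called higher. In KO_ST against CT 0 were called, with Ptgs2 at 0.16, Bdnf at 0.15 and Nrn1 at 0.15. In KO_ST against WT_ST 1 was called lower, Homer1 (-0.35), with 28.8, 28.7 and 25.7 FPKM in WT_ST and 25.5, 17.9 and 21.5 FPKM in KO_ST. Its lowest KO_ST mouse was replicate 2, where Arc was highest. Homer1 was at 0.28 and Scg2, a secretory granule gene, at -0.25 in WT_ST against CT without a call (unadjusted p = 0.101 and 0.00254 from limma). Scg2 stayed under the fold threshold, with every WT_ST mouse below every CT mouse. Of the 15, 2 were lower in all WT_ST mice than in all CT mice and 0 higher, where 14.0% of all tested genes did not overlap. Inhba (-0.22) and Scg2 (0.15) were not called in KO_ST against WT_ST.

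Of 20 genes of the signaling upstream, such as Creb1, Srf and the MAP kinases, 0 were called in WT_ST against CT and 0 in KO_ST against WT_ST. In KO_ST against CT 1 was called, Mapk3 (-0.30), which encodes the kinase ERK1, where 3.56% of all tested genes were called. Of 10 targets of the glucocorticoid receptor, 1 was called higher and 0 lower in WT_ST against CT (median log2 fold change 0.09), 3 higher and 1 lower in KO_ST against CT (0.17), and 1 higher and 1 lower in KO_ST against WT_ST (0.12). The shares of all tested genes called were 2.47%, 3.56% and 2.0%, and the counts include the knocked-out gene. Fkbp5 itself was called higher in WT_ST against CT (0.44) and lower in KO_ST against CT (-0.60) and WT_ST (-1.04). Tsc22d3, which encodes the glucocorticoid-induced leucine zipper protein, was called higher in KO_ST against WT_ST (0.47) and against CT (0.65). Sgk1 (0.47) and Per1 (0.33) were called higher in KO_ST against CT, and Per1 is also counted above among the other rapid response genes. Others pointed the other way without a call, Cdkn1a at -0.18 in KO_ST against CT and Zbtb16 at -0.25 in KO_ST against WT_ST. Tsc22d3 was at 16.8, 17.4 and 24.2 FPKM in WT_ST and 24.3, 27.9 and 28.6 FPKM in KO_ST, with the lowest KO_ST mouse just above the highest WT_ST mouse.

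**Figure D5:**
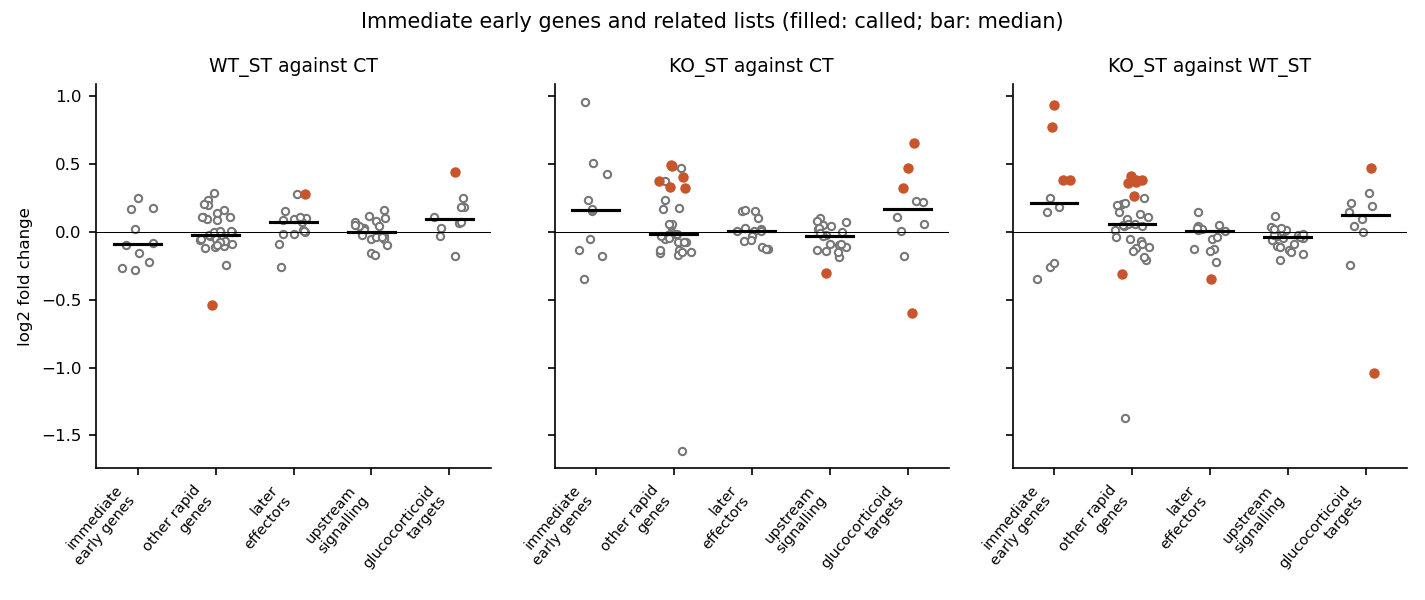
Log2 fold change (vertical axis) of the 10 genes and of 4 related gene lists in the 3 comparisons, with 1 point per tested gene, filled where called, and a bar at the median. In KO_ST against WT_ST the median is 0.22 for the 10 genes (0.10 without KO_ST replicate 2), 0.06 for other rapid genes and 0.01 for later effectors.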

How the data were processed

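RNA libraries (TruSeq stranded mRNA, 1 per mouse) were sequenced, aligned to GRCm38/mm10 and quantified by the authors. The submitters' processing notes name HISAT2 2.1.0, Bowtie2 2.3.4.1 and StringTie 1.3.4d. The authors deposited unnormalized read counts per gene, and FPKM values, which divide by transcript length and sequencing depth. The measure tested was log2(FPKM+1), with 1 as pseudocount, quantile normalized over 24532 genes and 9 mice. Groups were compared by the moderated test of limma 3.58.1 in R 4.3.3, with its trend of variance on level, on the 6 mice of the 2 groups compared, over the 14370 genes averaging at least 30 reads per mouse, with Benjamini-Hochberg adjustment over these genes. Differences are those of log2(FPKM+1), which understates changes of genes at a low level. Alternatives used edgeR 4.0.16 (quasi-likelihood test) and DESeq2 1.42.0 on the counts, other pseudocounts, filters and normalizations, 1 fit over all groups, a replicate block, and the omission of each mouse. The methods were tested on simulated counts modelled on CT and WT_ST. With no gene changed there, DESeq2 gave some genes an adjusted p under 0.05, and limma and edgeR did not. Pairs were tested by permuting the 362880 orders of 9 mice, or the 216 orders within groups.

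The 10 genes and the gene lists were chosen with earlier results of these data known. Named besides the 10 were the called genes of the rapid and later lists, the 3 with the largest absolute fold change in each, the 10 most alike genes (1 of them is not reported here), and the 3 highest and lowest pairs. Upstream and glucocorticoid genes, Gadd45b levels and the sets of correlated genes were chosen after their values were seen. Positions and sequences come from RefSeq (GRCm38.p6). Figures were drawn with matplotlib 3.10.9. The labels do not say whether replicate numbers pair the mice, and the numbers were used as pairs in the replicate block alone.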

Additional observations from a re-analysis of the deposited data

How the results depend on the processing

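Of 30 log2 fold changes (10 genes in 3 comparisons), 322 of 340 alternative values other than the omission of 1 mouse kept their direction and their side of the call, 10 gained a call, 3 lost it and 5 changed sign. Arc in WT_ST against CT changed sign to -0.17 in edgeR with either scaling and to -0.17 in DESeq2. Without both CT replicate 1 and KO_ST replicate 2, an alternative chosen after the data were seen, Egr1 (0.20) and Npas4 (0.15) changed sign in KO_ST against CT, 3 of the 10 genes were called there instead of 0 (685 of all tested genes instead of 512), and the median pairwise correlation was 0.260. With all 3 groups in one fit, 1 gene (Arc) was called in KO_ST against CT and 2 (Arc and Dusp1) instead of 4 in KO_ST against WT_ST, with 544 and 263 of all tested genes called. edgeR with TMM, edgeR with DESeq2 size factors and DESeq2 each called 1 of the 10 in KO_ST against CT, with 665, 666 and 738 of all tested genes called. Over all tested genes, 544 (pseudocount 0.1), 535 (edgeR, TMM), 535 (edgeR, DESeq2 size factors) and 552 (DESeq2) were called in WT_ST against CT instead of 355, and 445 (pseudocount 0.1) instead of 287 in KO_ST against WT_ST. The cause was not tested.

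With 1 mouse left out, the median pairwise correlation ran from 0.517 to 0.652, and 143 of 180 values kept direction and call. The genes called among the 10 numbered 0 to 2 in WT_ST against CT, 0 to 3 in KO_ST against CT and 2 to 6 in KO_ST against WT_ST, and all tested genes called 277 to 544, 411 to 739 and 245 to 477. Log2 fold changes that changed sign in WT_ST against CT ranged from -0.011 to 0.66 (Fos), -0.29 to 0.055 (Fosb), -0.20 to 0.073 (Junb), -0.0014 to 0.47 (Egr1), -0.33 to 0.53 (Arc), -0.46 to 0.050 (Npas4), -0.26 to 0.048 (Ier2) and -0.41 to 0.0069 (Dusp1). In KO_ST against CT they ranged from -0.20 to 0.24 (Egr1), -0.30 to 0.010 (Egr2) and -0.31 to 0.20 (Npas4), and in KO_ST against WT_ST from -0.027 to 0.35 (Fos). Arc and Dusp1 were called higher in KO_ST against WT_ST without any 1 mouse.

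Same-numbered mice of different groups did not deviate together from their group means (mean r -0.0101, against 0.00494 for other mice), and 2 of 9 same-number pairs exceeded 0.1. With a replicate block, 0, 0 and 5 of the 10 genes were called in the 3 comparisons (Egr2 being added, -0.35), and 399, 562 and 279 of all tested genes. With 3 mice per group and the spread of these genes, intervals were wide, from -0.13 to 2.05 for Arc in KO_ST against CT.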
